A study of Mus musculus with 15 samples.

Results

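The comparison described here sets the effect of complete Freund's adjuvant (CFA) on mouse sensory neurons that innervate muscle against its effect on those that innervate the skin of the paw. It is the difference of 2 differences, CFA muscle minus saline muscle and CFA paw minus saline paw, and it uses 12 of the 15 arrays of the series, with 3 arrays in each of the 4 groups, and all 19938 genes tested. CFA is an emulsion with killed mycobacteria that causes lasting local inflammation. All mice were C57BL/6 and carried a green fluorescent reporter driven by the promoter of CGRP (calcitonin gene-related peptide), so controls and treated mice share the transgene. The groups were CGRP-negative neurons projecting to muscle after CFA in muscle (CFA muscle), the same kind of neuron after saline in muscle (saline muscle), CGRP-positive neurons projecting to skin after CFA in the paw (CFA paw) and the same kind after saline in the paw (saline paw). Neurons of lumbar ganglia 2 to 5 were dissociated and sorted for a diameter over 26.9 µm, for the reporter and for a retrograde tracer (wheat germ agglutinin) placed in the gastrocnemius muscle or at the saphenous nerve 5 days earlier, and 50 ng of RNA was labelled per array. The muscle and the paw groups thus differ in target and in CGRP class at once, and the share of each in the difference cannot be told apart. The age and sex of the mice, the animals per array and the time between CFA and death are not given in the sources used here.

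Inflamed tissue releases nerve growth factor, cytokines, prostaglandins and protons, which act on receptors of the sensory ending and, by retrograde signals, on transcription in the ganglion. In skin nociceptors inflammation is known for raising peptides such as CGRP and substance P, while injury to the axon sets off another programme with the transcription factor Atf3, galanin and growth genes. Neurons to muscle and neurons to skin differ in channels, peptides and trophic factor receptors, and the difference of effects asks whether the same stimulus acts differently on them. A positive value below means that the CFA effect was higher in muscle than in paw neurons, and a negative value that it was higher in paw neurons. Values are log2 expression per gene, so 1 unit is a doubling.

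No gene passed the test of this difference at an adjusted p of 0.05 (limma, 0 of 19938 genes, 0%). At an unadjusted p under 0.05 there were 325 genes, or 1.63%, of which 193 (0.968%) were positive and 132 (0.662%) negative. The component comparisons gave 0 genes each after adjustment, with 518 genes (2.6%, of which 1.39% positive and 1.2% negative) under an unadjusted p of 0.05 for CFA muscle against saline muscle and 241 (1.21%, of which 0.441% positive and 0.767% negative) for CFA paw against saline paw. Each of the shares 1.63%, 2.6% and 1.21% is below the 0.05 of genes that such a threshold passes on average where no gene differs. The median standard error of the difference was 0.263 log2, against 0.186 for a single comparison, since it carries the error of 4 groups. The SD of the difference over genes was 0.255, and 15 genes lay above 1 and 19 below −1. Across the 19938 genes, which are not independent, the muscle and the paw effect had a Pearson correlation of −0.033 and a Spearman correlation of −0.031, and 50.6% of genes had effects of opposite sign. The values below therefore describe genes and groups of genes that did not pass the threshold over all genes.

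**Figure D1:**
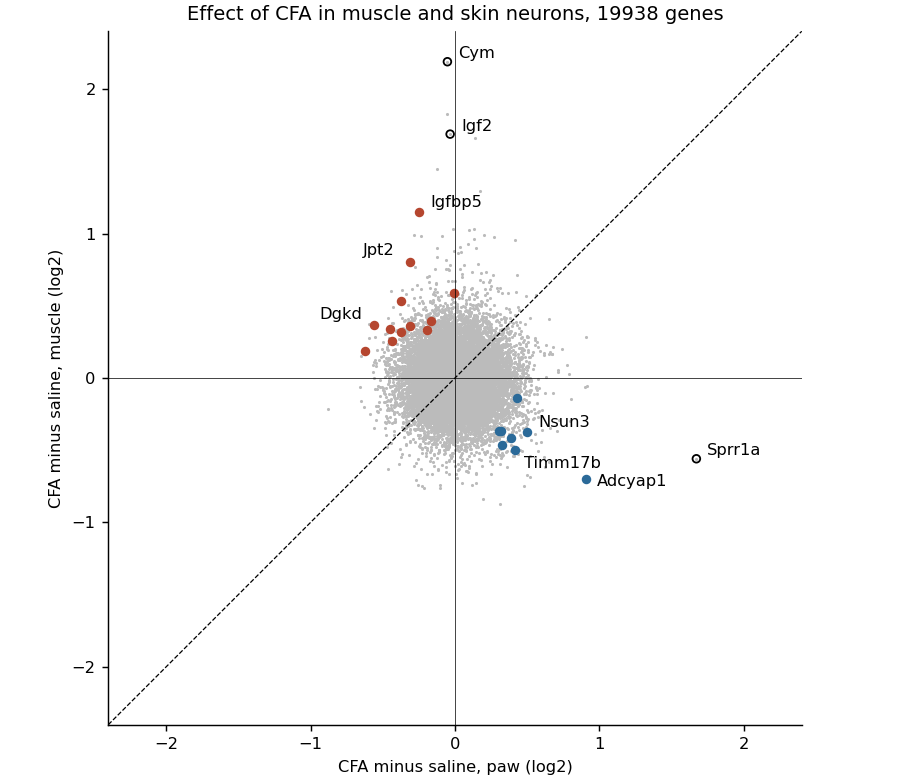
Effect of CFA in muscle neurons (vertical axis, CFA muscle minus saline muscle, log2) against the effect in paw neurons (horizontal axis, CFA paw minus saline paw, log2), 1 grey point per gene for 19938 genes. Red and blue points are the 20 named genes with the smallest p for the difference, 12 positive and 8 negative, the dashed line marks equal effects, and open circles mark Cym, Igf2 and Sprr1a, picked after their values were seen. Every coloured point lies in the upper left or the lower right field, where the effects have opposite signs.

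Certain arrays stood apart, and each can weigh on the values given here. The SD of the levels over genes ran from 1.345 to 1.797 on the 12 arrays. Saline paw replicate 1 had 1.423, against 1.659 to 1.797 on the other paw arrays, it had a score of −22.3 on the first principal component against 32.5 to 58.1 on the other paw arrays, and array weights gave it the lowest weight of the 15 arrays, 0.148. The mean level of 16 sensory neuron markers was 7.62 on this array, against 8.64 and 8.72 on the other saline paw arrays and 8.41 to 8.61 on CFA paw arrays. Without it the correlation of the effects was 0.019. Values are given with and without it for many, but not all, of the genes and lists below. In muscle, 5 genes lay on CFA muscle replicates 2 and 3 more than 1 log2 unit above each of the other 13 arrays: Cym, Igf2, Xist, Snord33 and Hbb-y, and 0 genes lay that far below. Xist, an RNA of the inactive X chromosome, was at 1.40, 3.29 and 3.35 in CFA muscle replicates 1 to 3 and between 1.43 and 1.93 on the other 12 arrays, while the Y-linked gene Eif2s3y was at 2.39, 3.11 and 3.20 in CFA muscle and between 2.22 and 3.25 on the other 12. The Y-linked genes Kdm5d and Uty were at 2.15, 1.96 and 2.21 and at 2.62, 2.39 and 2.90 in CFA muscle, within the ranges of the other 12 arrays (1.85 to 2.63 and 2.28 to 3.50). Values without these 2 CFA muscle arrays are given for some, but not all, of the genes and lists below. All 16 sensory neuron markers lay above the dim limit of 2.44, the level under which 95% of 1194 odorant and pheromone receptor genes lay, as did 8 of 25 macrophage markers, while Adgre1, Aif1 and Ptprc were below it.

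Igfbp5, a secreted binding protein of insulin-like growth factors, had the smallest p. It was at 4.84, 5.48 and 5.57 in CFA muscle, against 4.43, 3.64 and 4.40 in saline muscle, and at 3.84, 3.82 and 4.28 in CFA paw, against 4.32, 4.10 and 4.25 in saline paw. All CFA muscle arrays were above all saline muscle arrays, and the paw groups overlapped. The effect was 1.15 (SE 0.23) in muscle and −0.25 (SE 0.23) in paw, a difference of 1.39 (SE 0.33, 95% interval 0.70 to 2.09, limma unadjusted p = 0.000726, smallest adjusted p over all genes 0.9998). Replicates 2 and 3 of CFA muscle, which stood apart in Igf2, were also the higher ones for Igfbp5. Igf2, the growth factor that Igfbp5 binds, was at 2.75, 5.70 and 6.27 in CFA muscle, against 3.00, 3.18 and 3.47 in saline muscle, and its difference was 1.72 (SE 0.89, limma unadjusted p = 0.0732). Without replicates 2 and 3 the difference of Igfbp5 was 0.94 and that of Igf2 −0.44. In cells pooled for an array, fewer cells of a type and less RNA per cell cannot be told apart.

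Adcyap1, which encodes the neuropeptide PACAP, had the most negative difference among the 20 genes. It was at 3.65, 4.34 and 3.73 in CFA muscle, against 5.03, 4.23 and 4.55 in saline muscle, and at 7.08, 7.20 and 7.16 in CFA paw, against 5.65, 6.22 and 6.85 in saline paw. The CFA paw arrays all lay above the saline paw arrays, and the muscle groups overlapped in 1 pair of arrays. The effects were −0.70 (SE 0.27) in muscle and 0.91 (SE 0.27) in paw, and the difference was −1.60 (SE 0.38, 95% interval −2.42 to −0.79, limma unadjusted p = 0.000808). Saline paw replicate 1 was the lowest of its group, and without it the difference was −1.31.

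The promoters of the gene with the largest positive and of the gene with the most negative difference among the 20, and of Nts, the precursor of neurotensin, are printed to show the sequence in front of genes whose CFA effects had opposite signs. They run from 250 bases before to 50 after the start of the gene in RefSeq (GRCm38.p6), at chr1:72874816-72875115 on the minus strand for Igfbp5, chr17:93198918-93199217 on the plus strand for Adcyap1 (the downstream of its 2 listed starts) and chr10:102490369-102490668 on the minus strand for Nts. Capitals mark the half-site TGACG of the cAMP response element and the AP-1 site TGANTCA, searched on both strands, where CGTCA is the half-site on the other strand.
Igfbp5: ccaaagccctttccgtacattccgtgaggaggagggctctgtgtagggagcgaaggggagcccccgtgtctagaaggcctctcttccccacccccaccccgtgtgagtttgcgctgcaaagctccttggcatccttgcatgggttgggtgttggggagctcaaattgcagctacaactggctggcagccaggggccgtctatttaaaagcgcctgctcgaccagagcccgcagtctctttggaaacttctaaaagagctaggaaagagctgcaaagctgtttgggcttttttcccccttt
Adcyap1: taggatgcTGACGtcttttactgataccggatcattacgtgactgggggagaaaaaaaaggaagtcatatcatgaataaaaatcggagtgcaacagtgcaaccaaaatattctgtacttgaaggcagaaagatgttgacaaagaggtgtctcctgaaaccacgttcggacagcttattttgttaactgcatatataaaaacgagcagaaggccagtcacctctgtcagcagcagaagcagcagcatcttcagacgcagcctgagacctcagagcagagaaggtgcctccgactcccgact
Nts: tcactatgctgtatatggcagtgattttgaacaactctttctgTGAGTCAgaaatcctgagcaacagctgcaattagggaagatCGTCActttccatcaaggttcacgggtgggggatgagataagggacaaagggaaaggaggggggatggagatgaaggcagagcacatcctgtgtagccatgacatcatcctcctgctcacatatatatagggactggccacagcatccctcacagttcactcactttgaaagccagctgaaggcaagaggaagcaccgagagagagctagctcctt
Adcyap1 holds the half-site at −242, Nts holds an AP-1 site at −207 and the half-site of the other strand at −166, and neither set of letters is in the window of Igfbp5. Of 32851 promoter windows of this length, 20.8% hold TGACG and 7.81% hold TGANTCA, and a match is a description of letters, not of a bound site.

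Among the other positive differences, Jpt2, which binds the calcium messenger NAADP, was at 2.92, 3.25 and 3.75 in CFA muscle, against 2.71, 2.68 and 2.12 in saline muscle, and at 2.89, 2.59 and 2.70 in CFA paw, against 3.18, 3.03 and 2.89 in saline paw. Its difference was 1.12 (SE 0.28), and its muscle groups did not overlap. Dgkd, a kinase that turns diacylglycerol into phosphatidic acid, was at 3.66, 3.50 and 3.91 in CFA muscle, against 3.05, 3.45 and 3.45 in saline muscle, and at 3.26, 3.01 and 3.35 in CFA paw, against 3.75, 3.67 and 3.89 in saline paw. Its groups separated at both sites in opposite directions, with a difference of 0.93 (SE 0.25). Gfod1 was at 4.57, 4.72 and 4.76 in CFA muscle, against 4.25, 4.33 and 4.51 in saline muscle, and at 4.71, 4.69 and 4.71 in CFA paw, against 5.25, 5.04 and 4.93 in saline paw. It too separated at both sites, by 0.32 in muscle and −0.37 in paw. The mitochondrial genes Bcs1l, a chaperone of respiratory complex III, and Clybl, a lyase, differed by 0.90 (SE 0.26) and 0.69 (SE 0.20). The splicing factor U2af1, the histone H2ax, and the dim genes Ttc6 and Dusp27 differed by 0.68, 0.79, 0.53 and 0.56.

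Among the other negative differences, Timm17b, a subunit of the channel that imports proteins into mitochondria, was at 4.05, 3.40 and 3.98 in CFA muscle, against 4.20, 4.33 and 4.39 in saline muscle, and at 4.65, 4.97 and 4.57 in CFA paw, against 4.32, 4.27 and 4.35 in saline paw. Its groups did not overlap at either site, and the difference was −0.91 (SE 0.23, limma unadjusted p = 0.00157). Nsun3, which methylates a mitochondrial transfer RNA, was at 3.56, 3.48 and 3.54 in CFA muscle, against 3.84, 4.01 and 3.87 in saline muscle, and at 4.64, 4.68 and 4.60 in CFA paw, against 3.61, 4.35 and 4.45 in saline paw. It separated at both sites as well, and its difference of −0.88 (SE 0.25) was −0.62 without saline paw replicate 1. Srrd was at 3.83, 3.99 and 3.96 in CFA muscle, against 4.19, 4.37 and 4.34 in saline muscle, and at 4.51, 4.27 and 4.34 in CFA paw, against 4.29, 4.01 and 3.86 in saline paw. Its muscle groups were separate and its paw groups overlapped, with a difference of −0.69 (SE 0.20). Pdp2, a phosphatase that activates pyruvate dehydrogenase, Strip2 and the Nodal co-receptor Tdgf1 were below the dim limit on average and differed by −0.80, −0.56 and −0.67.

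The 20 genes held a receptor and an effector of the Notch pathway with opposite signs. The receptor Notch2 was at 3.90, 4.16 and 3.91 in CFA muscle, against 3.38, 3.38 and 3.44 in saline muscle, and at 3.18, 3.22 and 3.23 in CFA paw, against 3.37, 2.99 and 3.31 in saline paw. Rbpj, the DNA-binding protein through which Notch acts, was at 3.62, 3.83 and 3.66 in CFA muscle, against 4.34, 4.22 and 3.93 in saline muscle, and at 4.50, 4.30 and 4.12 in CFA paw, against 3.96, 4.19 and 3.79 in saline paw. Both had separate groups in muscle, with CFA above saline for Notch2 and below it for Rbpj, and overlapping groups in paw. The difference was 0.60 (SE 0.18) for Notch2 and −0.79 (SE 0.24) for Rbpj. A second, dim probe set of Rbpj gave 0.26. Oprd1, the delta opioid receptor, was at 3.85, 4.29 and 4.06 in CFA muscle, against 4.06, 3.66 and 3.93 in saline muscle, and at 4.06, 3.92 and 4.06 in CFA paw, against 4.82, 4.68 and 4.41 in saline paw. The whole CFA paw group of Oprd1 lay below saline paw, and its difference was 0.81 (SE 0.25).

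**Figure D2:**
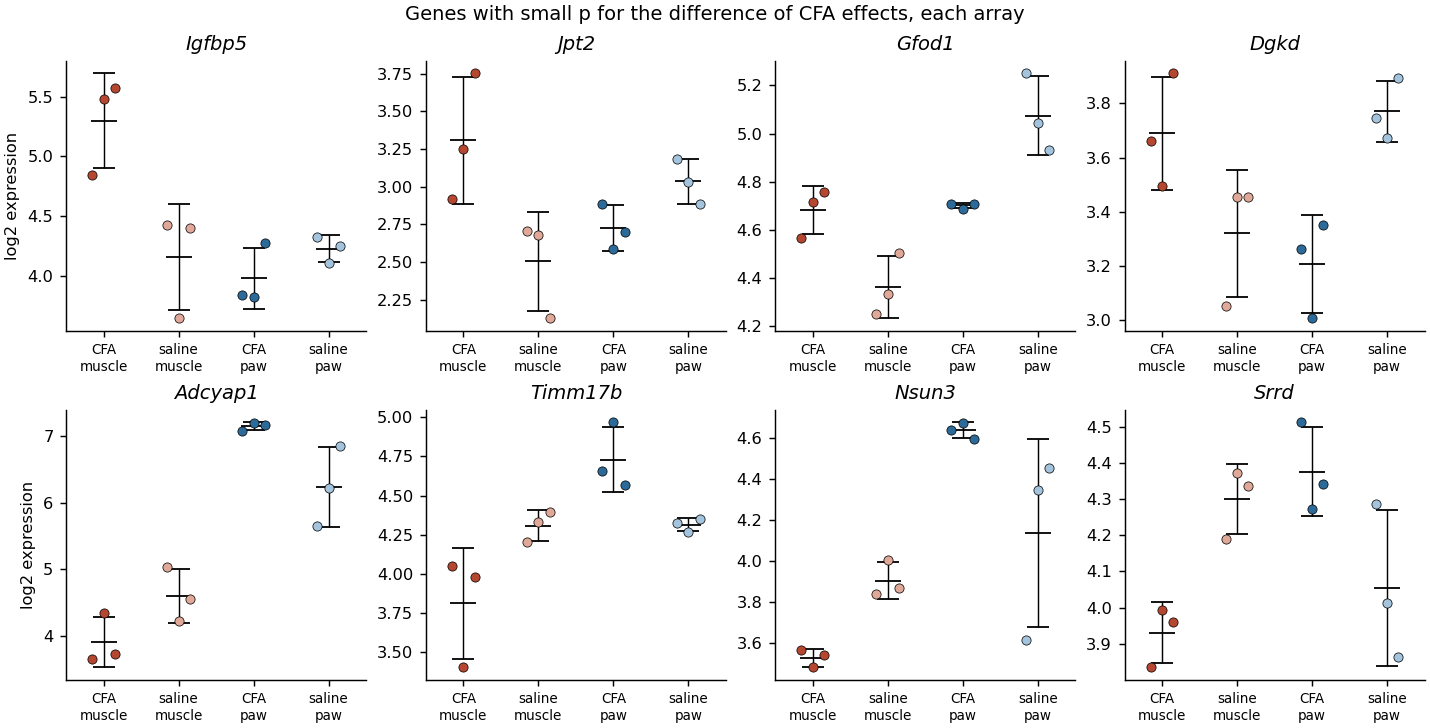
Log2 expression (vertical axes, not starting at 0) of 8 genes with small p for the difference on each of the 12 arrays, in the order CFA muscle, saline muscle, CFA paw and saline paw. Points are arrays and bars are the mean ± SD of 3 arrays. The upper genes Igfbp5, Jpt2, Gfod1 and Dgkd have higher CFA means in muscle and lower CFA means in paw, and the lower genes Adcyap1, Timm17b, Nsun3 and Srrd show the reverse.

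All 20 genes had effects of opposite sign at the 2 sites, which the choice of genes by the smallest p of the difference itself favours, and nothing is read from it. The size was larger in muscle for 12 of them and in paw for 8. Groups that do not overlap are likewise favoured by that choice: they were separate in muscle for 16 of the 20 (over all genes 3.63% with CFA above and 4.1% below), in paw for 12 (1.73% and 2.99%) and at both sites for 8. Over all genes, CFA lay above saline in muscle and below it in paw, without overlap at either site, for 28 genes (0.14%), and the reverse held for 19 (0.0953%). Separation in the same direction at both sites was seen for 11 genes above (0.0552%) and 32 below (0.16%).

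Neuropeptide genes had mostly negative differences. Of 28 measured peptides, granins and processing genes, 20 were negative, with a median of −0.23, against −0.0013 over all genes, of which 10011 of 19938 were negative. The median effect was −0.08 in muscle and 0.07 in paw. By unadjusted p under 0.05 (limma) 2 were negative and 0 positive, against 0.662% and 0.968% of all genes, and none passed over all genes. In paw, 4 of the 28 had all CFA arrays above all saline arrays, against 1.73% of all genes, and in muscle 1 had all CFA arrays below, against 4.1%. Of the 4, Vip was below the dim limit on average. Vgf, a precursor of several secreted peptides induced by growth factors, was at 4.76, 4.50 and 4.72 in CFA muscle, against 4.37, 4.71 and 4.96 in saline muscle, and at 6.09, 6.03 and 6.04 in CFA paw, against 5.44, 5.63 and 5.52 in saline paw. Its groups overlapped in muscle and were apart in paw, where all 3 saline arrays lay close together, and the difference was −0.54 (SE 0.21, limma unadjusted p = 0.0237). Nts, the neurotensin precursor, was at 2.45, 2.75 and 3.62 in CFA muscle, against 3.54, 3.39 and 3.06 in saline muscle, and at 3.34, 2.83 and 2.61 in CFA paw, against 2.20, 2.38 and 2.55 in saline paw. It was separate in paw and overlapped in muscle, with a difference of −0.94 (SE 0.49), which was −1.43 without CFA muscle replicates 2 and 3. Nppb, a natriuretic peptide used by itch neurons, had a positive difference of 0.39 (SE 0.20). Calcb, which encodes a form of CGRP, and Tac1, the substance P precursor, had overlapping groups at both sites. They differed by −0.44 (SE 0.40) and −0.74 (SE 0.42), or 0.03 and −0.32 without saline paw replicate 1. Their paw effects were 0.29 and 0.41 with all arrays, and −0.18 and −0.01 without that array. Without saline paw replicate 1, 19 of the 28 were negative and the median was −0.19, and without CFA muscle replicates 2 and 3 it was −0.33.

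Genes of nerve injury and regeneration were negative in 35 of 42 measured members, with a median difference of −0.29, made of a median of −0.08 in muscle and 0.21 in paw. By unadjusted p under 0.05 (limma) 2 were negative, Sema6a and Flrt3, and 0 positive, against 0.662% and 0.968% of all genes, and none passed over all genes. In paw 6 of the 42 had all CFA arrays above all saline arrays (Sema6a, Csf1, Mmp16, Sdc1, Nts and Vip, against 1.73% of all genes) and 0 below, against 2.99%. In muscle 1 was above (Ankrd1) and 1 below (Cckbr), against 3.63% and 4.1% of all genes. Vip and Ankrd1 were below the dim limit on average. Sema6a, a semaphorin of axon guidance, was at 4.64, 4.95 and 5.23 in CFA muscle, against 5.49, 5.21 and 4.99 in saline muscle, and at 6.69, 6.14 and 6.25 in CFA paw, against 5.51, 5.85 and 5.57 in saline paw. The paw groups were apart and the muscle groups overlapped, with a difference of −1.01 (SE 0.33, limma unadjusted p = 0.00785). Flrt3, a membrane protein of axon guidance, differed by −0.68 (SE 0.30), or −1.04 without CFA muscle replicates 2 and 3, and Ecel1, a peptidase induced in injured neurons, by −0.61 (SE 0.29).

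Further members, Sprr1a, Gal, Gap43 and Atf3, were picked after their values were seen. Sprr1a, a protein induced by axon injury that promotes outgrowth, was at 4.12, 6.22 and 6.92 in CFA muscle, against 6.95, 6.28 and 5.71 in saline muscle, and at 10.79, 10.22 and 8.65 in CFA paw, against 6.69, 9.02 and 8.94 in saline paw. Both pairs of groups overlapped, and the difference of −2.23 (SE 1.20) was −1.47 without saline paw replicate 1. Gal, the galanin precursor, was at 2.36, 1.98 and 2.84 in CFA muscle, against 2.56, 2.11 and 2.70 in saline muscle, and at 5.85, 5.31 and 4.24 in CFA paw, against 2.75, 4.63 and 5.33 in saline paw. Its low saline paw value was again replicate 1, and the difference of −0.96 (SE 0.74) was −0.22 without it. Gap43 and Atf3 had overlapping groups at both sites. They differed by −0.96 (SE 0.53) and −0.52 (SE 0.55), or −0.59 and −0.25 without saline paw replicate 1. Their paw effects went from 0.60 and 0.39 to 0.23 and 0.12 without that array. Over the whole list, without saline paw replicate 1, 34 of 42 members were negative, the median was −0.22 and the median paw effect 0.13. Without CFA muscle replicates 2 and 3 the median was −0.29. Of the 42 injury genes 5, or 11.9%, are also among the neuropeptides, of which they are 17.9%: Gal, Nppb, Npy, Nts and Vip.

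**Figure D3:**
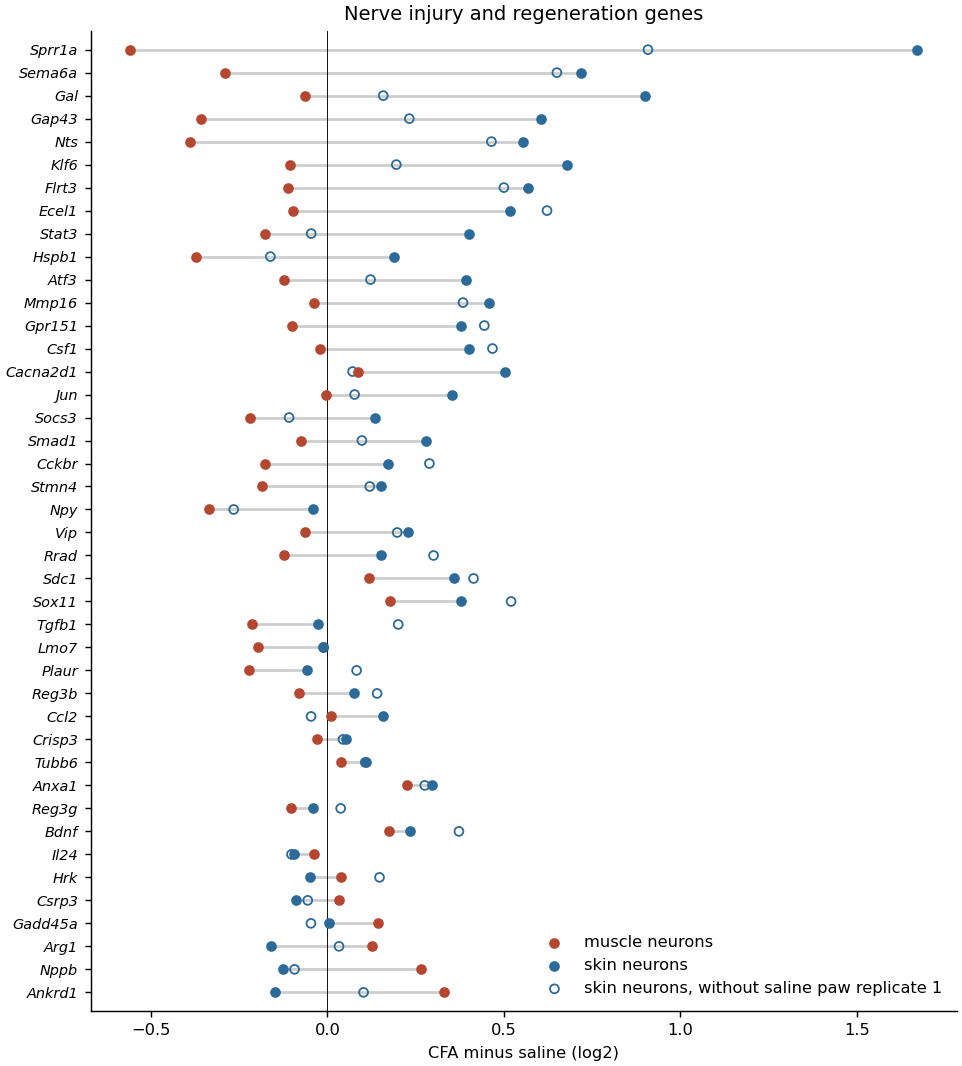
CFA minus saline (log2, horizontal axis) for each of the 42 measured nerve injury and regeneration genes, in muscle neurons (red), in paw (skin) neurons (blue) and in paw neurons without saline paw replicate 1 (open). The muscle point lies left of the blue point in 35 of 42 genes, and the open point moves towards 0 for Sprr1a and Gal.

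The medians of several neuronal lists had the opposite sign without 1 array. The list of 21 peptidergic nociceptor markers is broad. It includes Th, Runx1, Scn11a and Dcn, the last also listed as a fibroblast marker. Its median difference was −0.33 with all arrays and 0.02 without saline paw replicate 1. For 16 general sensory neuron markers these were −0.31 and 0.05, for 39 cytoskeleton and axonal transport genes −0.25 and 0.09, for 35 synaptic vesicle genes −0.25 and 0.08, and for 15 sodium channel genes −0.25 and 0.03. These lists turned from negative to positive, while the injury and the neuropeptide list did not. Without CFA muscle replicates 2 and 3 the medians of these lists, in the same order, were −0.60, −0.76, −0.41, −0.43 and −0.71. By level, the 4985 genes with the highest mean level had a median difference of −0.12 with all arrays and 0.11 without saline paw replicate 1. The median was negative for 25 of the 36 lists with all arrays, and for 17 without that array. Of the 36 lists, 7 kept 1 sign of the median when each of the 12 arrays was left out in turn, all of them negative: injury genes (−0.39 to −0.22), neuropeptides (−0.29 to −0.19), neuron transcription factors (−0.21 to −0.04), inflammatory mediator receptors (−0.15 to −0.04), inhibitory and transmitter receptors (−0.19 to −0.01), mechanosensitive channels and partners (−0.21 to −0.0054) and macrophage markers (−0.14 to −0.0027), the last with 17 of 25 members below the dim limit.

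**Figure D4:**
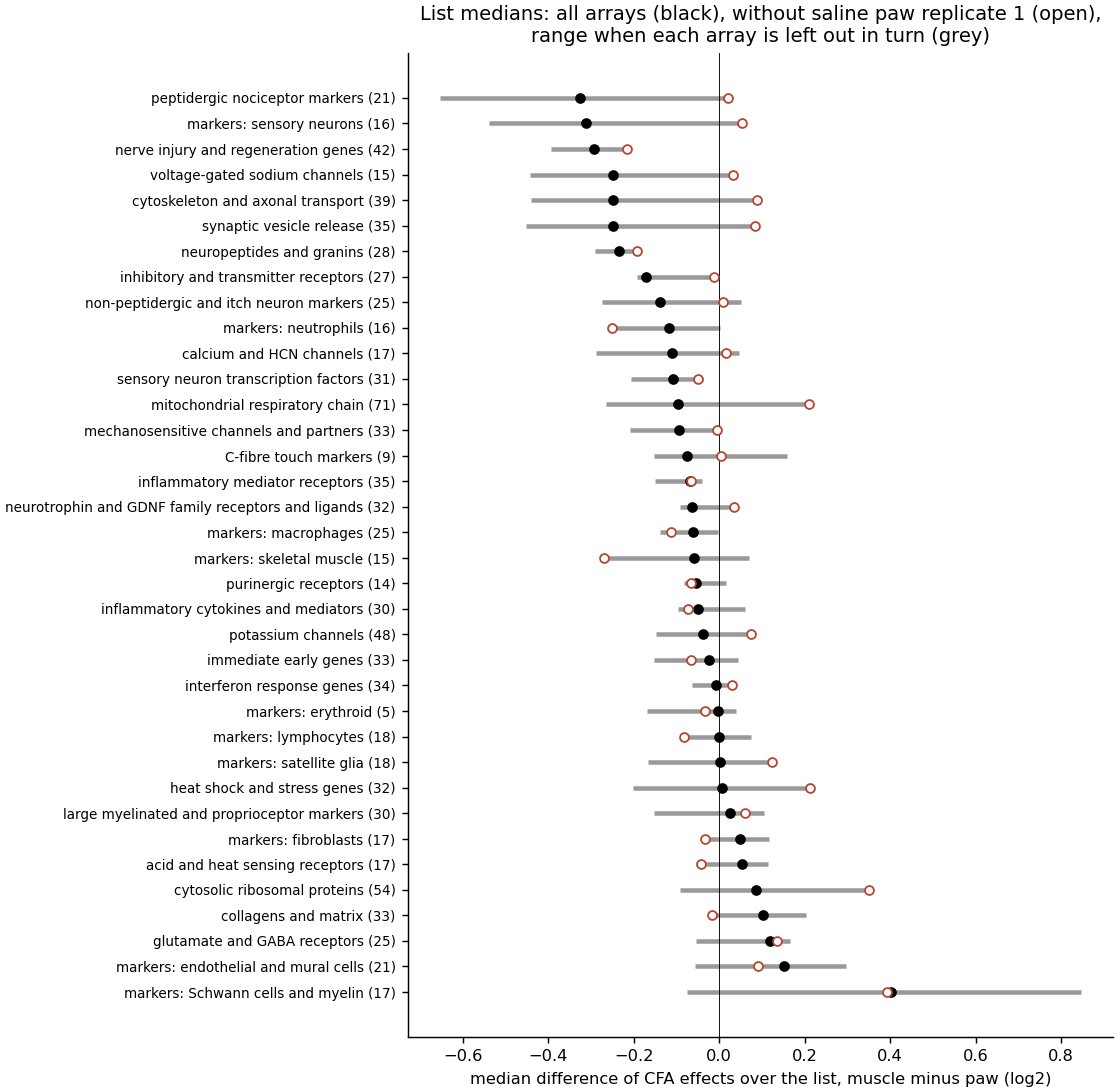
Median difference of CFA effects (muscle minus paw, log2, horizontal axis) for 36 gene lists, with the number of measured genes in brackets. Black points use all arrays, open points leave out saline paw replicate 1, and grey bars span the medians when each of the 12 arrays is left out in turn. Nerve injury genes and neuropeptides stay left of 0, whereas peptidergic, sensory neuron, cytoskeleton, synaptic and sodium channel lists reach across it.

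The study's stated interest is in mechanosensitive molecules, and 13 channels and partners of that kind were set out in full. None had an unadjusted p under 0.05 (limma). Trpv1, the capsaicin and heat receptor, was at 4.15, 4.67 and 4.61 in CFA muscle, against 4.97, 5.40 and 4.60 in saline muscle, and at 6.78, 6.83 and 7.02 in CFA paw, against 5.40, 6.80 and 7.02 in saline paw. Groups overlapped at both sites, and the difference was −0.97 (95% interval −2.01 to 0.06, limma unadjusted p = 0.0636), or −0.47 without saline paw replicate 1. Asic3, an acid-sensing channel of muscle afferents, was at 4.34, 4.12 and 4.53 in CFA muscle, against 5.47, 4.81 and 4.95 in saline muscle, and at 7.86, 7.54 and 7.54 in CFA paw, against 6.56, 7.80 and 8.23 in saline paw. CFA muscle lay below saline muscle on every array, the paw groups overlapped, and the difference was −0.86 (95% interval −1.91 to 0.19), or −0.37 without saline paw replicate 1.

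The touch channel Piezo2 was at 6.35, 7.29 and 7.33 in CFA muscle, against 7.30, 7.32 and 6.47 in saline muscle, and at 7.26, 7.36 and 7.24 in CFA paw, against 6.56, 7.52 and 7.15 in saline paw. Both pairs of groups overlapped, and the interval of its difference, −1.15 to 0.65 around −0.25, spans both signs. Its value was 0.0050 without saline paw replicate 1 and −0.89 without CFA muscle replicates 2 and 3. The other 2 probe sets of Piezo2, at mean levels of 6.89 and 6.73, gave −0.64 and −0.30. For Piezo1, a related channel, the interval was −0.999 to 0.50 around −0.25, with its other 2 probe sets at 0.17 and 0.50, and the value without saline paw replicate 1 was −0.46. The acid-sensing channels Asic1 and Asic2 differed by 0.09 (−0.52 to 0.69) and −0.41 (−1.17 to 0.35), and without saline paw replicate 1 by 0.27 and −0.13. The irritant receptor Trpa1 differed by −0.25 (−1.21 to 0.71), and the potassium channel Kcnk2 by 0.16 (−0.30 to 0.61), or 0.0086 and 0.03 without that array. For the other 5 (Trpv4, Trpc6, Kcnk4, Stoml3 and Tmem150c) the values lay between −0.28 and −0.03, and without saline paw replicate 1 between −0.41 and 0.18. The wider list of mechanosensitive channels and partners was negative in 22 of 33 members with a median of −0.09, which was −0.0054 without saline paw replicate 1. In it Lhfpl5, a partner of the hair cell transduction channel, differed by −0.52 (SE 0.21), and stomatin (Stom), which modulates acid-sensing channels, by 0.57 (SE 0.26), both with muscle groups that did not overlap.

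**Figure D5:**
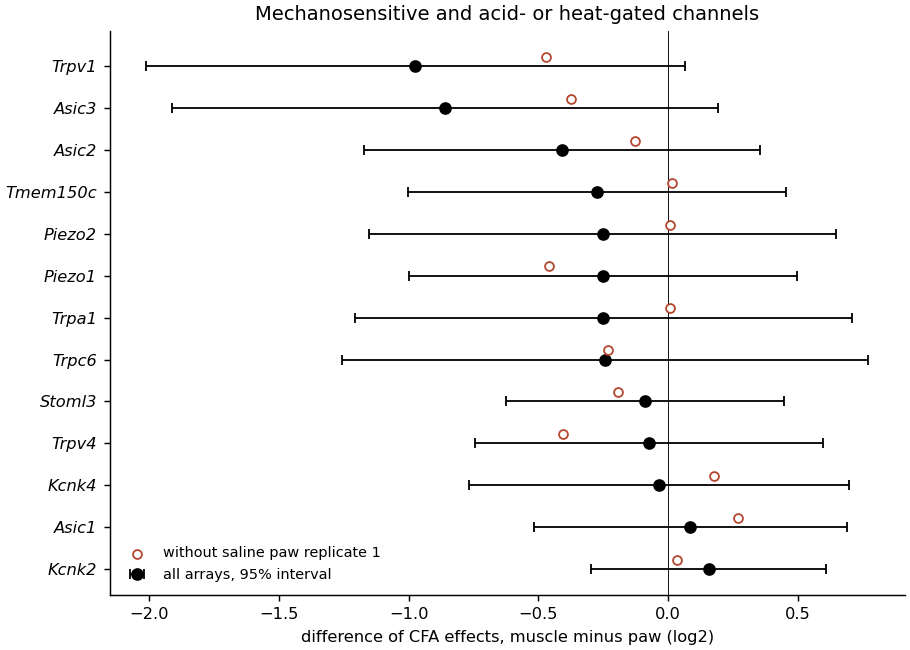
Difference of CFA effects (muscle minus paw, log2, horizontal axis) with its 95% interval for 13 mechanosensitive, acid-gated or heat-gated channels and partners (black), and the value without saline paw replicate 1 (open). Every interval includes 0, and the open points of Trpv1 and Asic3 lie nearer to 0 than the black ones.

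Receptors of inflammatory mediators were negative in 22 of 35 members with a median of −0.07, and in 24 with −0.07 without saline paw replicate 1. A list of inhibitory and other transmitter receptors was negative in 17 of 27 members with a median of −0.17, but in 14 with −0.01 without that array. Prokr2, a receptor of prokineticins, was at 2.88, 2.27 and 2.79 in CFA muscle, against 2.85, 2.84 and 2.70 in saline muscle, and at 5.42, 5.74 and 5.91 in CFA paw, against 4.26, 5.06 and 5.34 in saline paw. It was separate in paw and overlapped in muscle, with a difference of −0.95 (SE 0.33, limma unadjusted p = 0.0129). Leaving out saline paw replicate 1 gave −0.64, and the paw effect went from 0.80 to 0.49. Npy1r, a neuropeptide Y receptor, was below the dim limit in 5 of the 6 muscle arrays, at 2.14, 2.11 and 1.85 in CFA muscle, against 2.26, 2.26 and 2.61 in saline muscle, and was at 4.15, 4.85 and 4.53 in CFA paw, against 3.11, 4.16 and 4.29 in saline paw. Its difference was −1.002 (SE 0.37, limma unadjusted p = 0.0172), and −0.63 without saline paw replicate 1. The prostacyclin receptor Ptgir differed by −0.82 (SE 0.39), or −0.39 without that array, and the chemokine receptor Cxcr4 by 0.54 (SE 0.28).

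Etv5, a transcription factor and target of growth factor signalling, differed by −0.83 (SE 0.34), with all CFA paw arrays above saline paw, and by −0.49 without saline paw replicate 1. The immediate early genes Egr2 and Egr1 differed by −0.79 (SE 0.31) and −0.81 (SE 0.40), each also separate in paw (−0.67 and −0.53 without that array), while the 33 immediate early genes had a median of −0.02, 18 negative and 15 positive, or −0.07 with 20 negative without that array. Alkal2, a ligand of the receptor Alk, was at 2.66, 2.97 and 3.13 in CFA muscle, against 2.70, 3.14 and 2.64 in saline muscle, and at 4.20, 4.63 and 4.56 in CFA paw, against 3.27, 3.92 and 3.88 in saline paw. It was separate in paw only and differed by −0.68 (SE 0.29). The prostaglandin E synthase Ptges had a positive difference, at 2.90, 2.93 and 2.79 in CFA muscle, against 2.82, 2.76 and 2.68 in saline muscle, and at 2.64, 2.67 and 2.80 in CFA paw, against 3.20, 3.19 and 2.86 in saline paw, a difference of 0.50 (SE 0.18). Its CFA paw group lay below saline paw throughout. Potassium channels were negative in 27 of 48 members with a median of −0.04, near the share over all genes, and in 16 of 48 with a median of 0.07 without saline paw replicate 1. Among them were Kcnj3, an inwardly rectifying channel opened by G proteins, at −0.71 (SE 0.32, or −1.26 without CFA muscle replicates 2 and 3) and Kcnc2, a fast voltage-gated channel, at −0.62 (SE 0.28). Kcnj3 and Kcnc2 were at −0.56 and −0.44 without saline paw replicate 1.

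Among markers of other cells the sort could hold, Schwann cell and myelin markers had the highest list median, 0.40, with 12 of 17 positive. It lay between −0.08 and 0.85 when single arrays were left out and was 1.02 without CFA muscle replicates 2 and 3. The mean level of these 17 genes ran from 4.76 to 5.71 in CFA muscle, against 4.80 to 5.30 in saline muscle, and from 4.75 to 4.84 in CFA paw, against 4.66 to 4.80 in saline paw. The groups overlapped at both sites, and their part in the other results was not tested. The list also holds Ngfr, Ncam1 and Scn7a, each with a negative difference and higher means in paw than in muscle. Ngfr had means of 9.66 in CFA paw and 9.21 in saline paw, against 6.03 in CFA muscle and 6.39 in saline muscle. For Mbp these means were 4.71, 4.77, 6.03 and 5.65. In CFA muscle replicates 1 to 3 Ugt8a was at 6.19, 5.36 and 3.37, and Mag at 3.47, 3.50 and 3.01. Endothelial and mural cell markers had the second highest list median, 0.15, with 14 of 21 positive, and 0.09 with 12 positive without saline paw replicate 1. Satellite glia, lymphocyte and fibroblast markers had medians of 0.0022, 0.00015 and 0.05, and 0.12, −0.08 and −0.03 without that array. Neutrophil markers had −0.12, with 13 of 16 below the dim limit, and −0.25 without that array. The mean level of the 17 fibroblast markers ran from 3.76 to 3.85 in CFA muscle, against 3.68 to 3.71 in saline muscle, without overlap. In paw it ran from 3.38 to 3.47 after CFA and from 3.32 to 3.54 after saline. Of these genes 1, Col1a2, had separate muscle groups, with CFA above, against 3.63% of all genes. The part of fibroblast markers in the other results was not tested.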

How the data were processed

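Sorted dorsal root ganglion neurons were profiled on 15 Affymetrix arrays (5 groups, 3 biological replicates in each according to the series' design text). The authors deposited normalized log2 values, with RMA and Partek named, without versions, in the submitters' processing notes; the log base was read from the range of the values. Of 35556 probe sets, 21789 had 1 gene symbol, 1621 had several and 12146 were not listed in the probe table and are not analysed here. The probe set with the highest mean was used for each of the 999 genes with several, which left 19938 genes.

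A model of 5 group means was fitted to all 15 arrays in R 4.3.3 with limma 3.58.1 (10 residual degrees of freedom, empirical Bayes), with two-sided tests and Benjamini-Hochberg adjustment over all genes at 0.05. The acid muscle group enters only through the spread. The number of arrays limits the precision. Named genes are the 20 with the smallest p (unnamed and receptor cluster loci left out), up to 6 genes in each direction with opposed groups above the dim limit, from each of 36 lists at most 4 members by smallest p, and 13 fixed genes. Sprr1a, Gal, Gap43, Atf3, Calcb, Igf2, Cym, Xist, Eif2s3y, Kdm5d, Uty, Snord33, Hbb-y and members listed for non-overlap were added after their values were seen. The comparison, the members and the lists were chosen with earlier results of these data known, and no test was made over lists. The fit was tested on simulated data. Replicate numbers did not pair samples: of 18 same-numbered pairs, 7 correlated over 0.1 in their deviations from the group means, within a range of −0.5 to 0.339, so no block was used. Alternatives were centring, quantile and loess normalization, a dim filter, only the 12 arrays, array weights, an intensity trend, the mean of probe sets, the replicate block, each array left out in turn and, added after seeing the data, CFA muscle replicates 2 and 3 left out together.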

Additional observations from a re-analysis of the deposited data

Results flagged for a closer look

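Some named genes above the dim limit had every CFA array on one side of every saline array in muscle and on the other side in paw. The difference was tested with limma, and none passed after adjustment over all genes. CFA lay above saline in muscle and below it in paw for 18 of them, of which the 6 with the largest difference were Dgkd (0.93), Cstf2, a factor that cleaves messenger RNA before polyadenylation (0.84), Plxnb2, a semaphorin receptor (0.77), Gfod1 (0.69), Mospd3 (0.65) and Iffo2 (0.61). Plxnb2 was at 3.71, 3.35 and 4.14 in CFA muscle, against 3.28, 3.18 and 3.17 in saline muscle, and at 3.06, 3.26 and 3.06 in CFA paw, against 3.35, 3.35 and 3.42 in saline paw. The reverse held for 5 genes, Timm17b (−0.91), Nsun3 (−0.88), Vwa3b (−0.67), the microRNA gene Mir455 (−0.47) and Agfg2 (−0.42). Vwa3b was at 3.34, 3.35 and 3.35 in CFA muscle, against 3.65, 3.65 and 3.56 in saline muscle, and at 4.68, 4.65 and 4.64 in CFA paw, against 3.61, 4.55 and 4.60 in saline paw, and without saline paw replicate 1 its difference was −0.35. The mean of its 8 probe sets gave −0.064. These genes belong to the 0.14% and 0.0953% of all genes with such opposed groups. Groups separate in the same direction at both sites made up 0.0552% with CFA above and 0.16% with CFA below. Whether opposed genes are more frequent than they would be without any CFA effect was not tested. The 11 genes named here kept their direction under every alternative run. For settings that leave arrays out, the choice of groups without overlap fixed this in advance, so nothing is read from it.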

How the results depend on the processing

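The count of genes with a different CFA effect was 0 under each alternative run except without CFA muscle replicate 1, where it was 1 (Xist, 1.69, limma adjusted p = 0.0137), so leaving out single arrays gave 0 to 1. For CFA muscle against saline muscle single arrays gave 0 to 8, with 8 (Abi3bp, Cym, Foxa1, Hbb-y, Igf2, Sinhcaf, Snord33 and Xist) without CFA muscle replicate 1 and 0 otherwise. For CFA paw against saline paw, array weights called 125 genes, and leaving out single arrays gave 0 to 0. The weights were 0.148 for saline paw replicate 1 and 7.18 for saline paw replicate 3, the highest of all arrays. The weighted saline paw mean thus rests mostly on 1 array, a limit of every count with array weights. The 325 genes under an unadjusted p of 0.05 became 702 without saline paw replicate 1, 528 without saline paw replicate 2, 617 without CFA muscle replicates 2 and 3, 555 with loess, 489 with quantile normalization, 1852 with array weights and 190 of 14176 with the dim filter; the cause was not tested. With the replicate block the counts were 0, 0 and 0 after adjustment and 300, 443 and 204 unadjusted for the difference, muscle and paw; it changed no other call, and in 6 of 18 tests a sample correlated best with its own number. Over the alternatives Igfbp5 ran from 0.94 to 1.68 and Adcyap1 from −1.91 to −0.98. The 20 genes with the smallest p kept their direction under every alternative run, which their choice by that p favours. Of the 13 fixed genes 3 did (Asic2, Asic3 and Trpv1). Piezo1 was 0.14 with the mean of its probe sets, Kcnk2 −0.000334 and Kcnk4 0.21 with array weights, Kcnk4 0.0014 with quantile normalization, and Stoml3 0.051 without CFA muscle replicates 2 and 3. Leaving out single arrays gave −0.53 to 0.068 for Piezo2, −0.093 to 0.27 for Asic1, −0.44 to 0.0086 for Trpa1, −0.41 to 0.17 for Trpv4, −0.56 to 0.022 for Trpc6, −0.21 to 0.18 for Kcnk4, −0.19 to 0.026 for Stoml3 and −0.48 to 0.013 for Tmem150c. Dim genes have little signal over background, and their differences are correspondingly uncertain.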
